A study of Mus musculus with 36 samples.

Results

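The interferon response and antigen presentation genes are 44 mouse genes given by symbol, of the 52636 genes in the count files, and all 44 symbols matched an Ensembl identifier there. They were given as a list of symbols, drawn up with earlier results of these data known. They comprise 4 transcription factors, 4 RNA and DNA sensors and their regulators, 17 antiviral effectors and other interferon-stimulated genes, 5 interferon-inducible GTPases, 10 genes of class I antigen presentation and 4 of class II. To learn how factors secreted by senescent cells act on the intestinal epithelium, jejunal crypts of 6 C57BL/6 mice were grown as intestinal organoids, which are epithelial cultures that hold stem cells and their differentiated progeny. Passaged organoids were kept for 2 days in 6 conditions, each with 6 replicate libraries, which gave 36. All media were based on IntestiCult, the commercial medium called complete media, and every culture received an antibody. The controls were complete media + IgG. QCM + IgG and SCM + IgG held medium conditioned by mouse embryonic fibroblasts, made quiescent by serum deprivation for QCM and senescent for SCM, and Wnt5a + IgG was complete media with the noncanonical ligand Wnt5a. SCM + anti-Ptk7 and Wnt5a + anti-Ptk7 carried an antibody against the receptor Ptk7 in place of IgG. The labels name no interferon and no virus among the treatments, and complete media with anti-Ptk7 is not among the 6 conditions.

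Interferons bind receptors on the cell surface, and Janus kinases then phosphorylate STAT proteins. Type I and type III interferons signal through a complex that holds Stat2 and Irf9 and binds the interferon-stimulated response element (ISRE), and interferon gamma acts through the gamma-activated sequence (GAS). Epithelial cells of the gut keep class I antigen presentation on, by which peptides made by the proteasome are carried by Tap1 and Tap2, loaded with the help of tapasin (Tapbp) and shown on H2-K1 or H2-D1 with B2m, whereas class II presentation depends on the regulator Ciita.

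The promoters of some of the listed genes carry these elements, and 4 stretches are shown because they belong to the gene that changed most often here (Irf1), to antiviral genes near or under detection (Isg15 and Ifit1) and to a gene of high level (B2m). In 30 of the 44 genes with an entry in the RefSeq promoter table (GRCm38.p6, from 250 bases before to 50 after a start site), 13 held an ISRE, searched as GAAANNGAAA on both strands, against 3.99% of 27025 genes. A GAS, searched as TTCNNNGAA on both strands, was found in 8, against 9.55% of genes. Of all 32851 promoters of 300 bases, 3.44% held an ISRE and 8.30% a GAS. The stretches reach from 40 bases before the first match to 40 after the last, with the matches in capitals, and stand 5′ to 3′ along the gene. They lie at chr11:53769884-53769972, plus strand (Irf1, a GAS whose first base is 90 bases before the start), chr4:156200835-156200936, minus strand (Isg15, 3 overlapping ISREs), chr19:34640745-34640853, plus strand (Ifit1, 2 ISREs) and chr2:122147508-122147597, plus strand (B2m, 1 ISRE). The letters of an ISRE or a GAS were not in the promoter entries of Irf9 and Tapbp, and a match or its absence does not show whether a factor binds.
Irf1: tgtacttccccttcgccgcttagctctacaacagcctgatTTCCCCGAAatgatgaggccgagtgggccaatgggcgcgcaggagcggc
Isg15: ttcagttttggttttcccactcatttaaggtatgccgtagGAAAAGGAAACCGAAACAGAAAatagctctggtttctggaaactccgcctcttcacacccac
Ifit1: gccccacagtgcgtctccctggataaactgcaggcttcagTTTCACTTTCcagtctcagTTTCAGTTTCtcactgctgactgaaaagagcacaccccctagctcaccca
B2m: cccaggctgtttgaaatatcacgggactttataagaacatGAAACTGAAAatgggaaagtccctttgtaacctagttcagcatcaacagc

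The counts per library summed to between 9581589 and 21029769, and the listed genes took between 0.159% and 0.205% of them. Values are CPM, in which counts are divided by library sizes that TMM had scaled. To be called, a gene needed a fold change over 1.5 and an adjusted p under 0.05 (edgeR's quasi-likelihood test, Benjamini-Hochberg over 15497 genes tested). The labels do not say that the libraries of a condition came from separate cultures, so p-values measure the spread between these libraries. The sum of 5 epithelial markers was between 5480 and 19900 CPM over the libraries, with a median of 5890 CPM in complete media and 9350 CPM in Wnt5a. Of 6 fibroblast markers, Col3a1, Dcn and Thy1 were at 0 in all libraries and the sum stayed at or under 1.25 CPM, and of 8 immune markers Cd8a, Adgre1 and Itgax were among those at 0. The immune sum, between 9.55 and 18.1 CPM over the libraries, was almost all Csf1r, with condition means between 11.9 and 15.8 CPM. The sum of 6 enterocyte markers had medians of 1190 CPM (complete media), 1540 (QCM), 1830 (SCM) and 1560 (Wnt5a). Against complete media, 5 of the 6 had a log2 fold change above 0 in QCM and in SCM, and Sis had −0.53 and −0.54. The part of these shifts in the results was not tested. In bulk RNA, fewer cells of a type and less RNA per cell cannot be told apart.

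The levels of the listed genes spanned a wide range within the groups, from B2m, H2-K1 and H2-D1 at the top to genes without a count. Of the 44, 32 reached a mean of 0.5 CPM over the 36 libraries and 12 were not detected by this limit, namely Zbp1, Isg15, Ifit3, Oas2, Mx2, Gbp2, Gbp7, Iigp1, Nlrc5, Ciita, Cd74 and H2-Aa. Iigp1, a GTPase that acts on intracellular parasites, had 0 of 487231301 counts, which allows up to 0.00616 CPM over all libraries, counting error only. Ifit3 had a count in 9 of 36 libraries, Gbp2 and Mx2 in 4 and Oas2 in 2. Scaled per kilobase of coding sequence, since the study's methods counted reads in coding sequences, the mean level was 815 CPM for B2m, 494 for H2-K1 and 324 for H2-D1. These levels lay above those of 99.1%, 97.8% and 95.8% of the genes tested. On the same scale Isg15, a ubiquitin-like modifier and a common readout of interferon exposure, was at 0.993 CPM and Ifit1, which binds foreign RNA, at 0.587. The groups overlapped on this scale, since the antiviral genes Ifi35 and Bst2, at 61.5 and 35.6 CPM, stood above Psmb9, Tap1, Tap2 and Psmb8 of class I, at 8.01, 7.88, 5.60 and 4.35 CPM. Reads of H2-K1 and H2-D1, of the Ifit, Oas and Gbp families and of other close paralogs may have been divided between copies. The strand setting of the counting is not given in the sources used here, so reads where Parp9 overlaps Dtx3l, or Psmb9 overlaps Tap1, cannot be assigned to either.

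As a set, the detected genes were lowest in complete media and highest in Wnt5a + anti-Ptk7. The mean log2 CPM over the 32 genes ran from 2.45 through a median of 2.83 to 2.99 in complete media and from 2.97 through 3.05 to 3.21 in QCM. In SCM it ran from 2.99 through 3.27 to 3.38, and in Wnt5a from 3.07 through 3.20 to 3.29. With anti-Ptk7 it ran from 2.96 through 3.39 to 3.59 in SCM and from 3.40 through 3.52 to 3.91 in Wnt5a. The complete media libraries lay below all Wnt5a libraries of either antibody but met those of QCM and of both SCM conditions, and no p is given for this mean because of how the list was drawn up. Among the groups, the mean over the 13 detected antiviral genes was 1.03 ± 0.38 (SD, n = 6) in complete media, 1.32 ± 0.08 in QCM, 1.68 ± 0.30 in SCM and 1.62 ± 0.40 in Wnt5a, and with anti-Ptk7 it was 1.78 ± 0.35 in SCM and 2.22 ± 0.36 in Wnt5a. The complete media libraries reached 1.36 and overlapped those of QCM (from 1.19), SCM (from 1.12), SCM + anti-Ptk7 (from 1.27) and Wnt5a (from 1.04), but not those of Wnt5a + anti-Ptk7 (from 1.90). Markers of cell types also differed between conditions. The sum of 4 Paneth cell markers had medians of 1620 CPM in complete media, 1820 in QCM, 1910 in SCM and 1500 in Wnt5a, and with anti-Ptk7 of 1400 in SCM and 969 in Wnt5a. The epithelial sum had medians of 6950 CPM in QCM and 9190 in SCM, and with anti-Ptk7 of 8400 in SCM and 10000 in Wnt5a, so that, like the set, it was lowest in complete media and highest in Wnt5a + anti-Ptk7. The enterocyte sum had medians of 2110 and 1470 CPM with anti-Ptk7 in SCM and in Wnt5a. The part of these markers in the result was not tested. The class I mean over 9 genes stayed between 5.54 ± 0.09 and 5.77 ± 0.13 over the conditions.

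**Figure D1:**
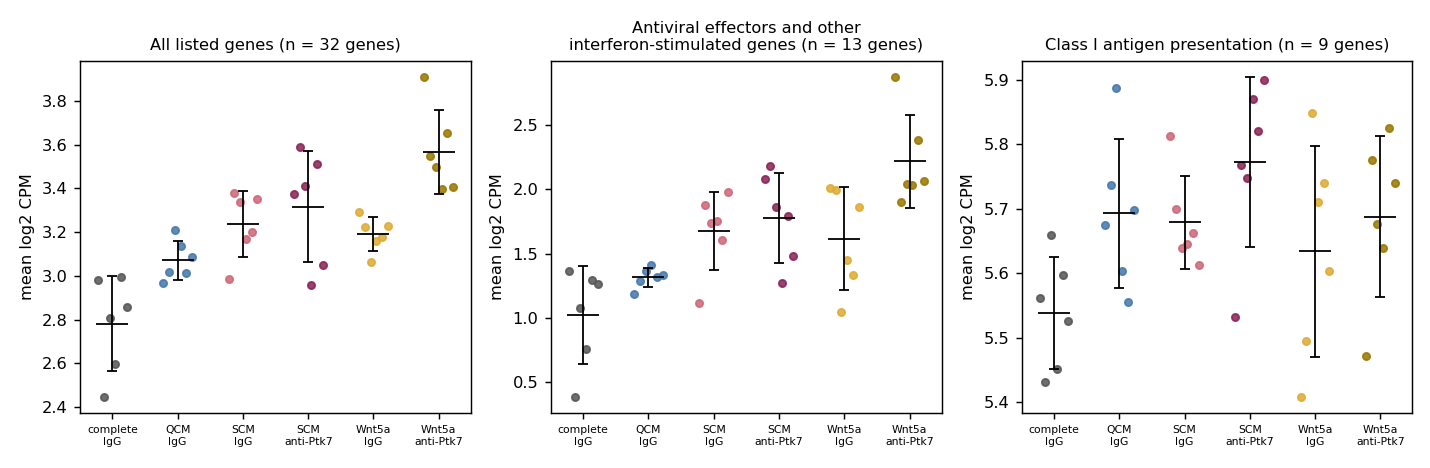
Mean log2 CPM of the detected listed genes (left, 32 genes), of the antiviral effectors and other interferon-stimulated genes (middle, 13 genes) and of class I antigen presentation genes (right, 9 genes); each point is a library, and bars are mean ± SD of 6 libraries. The antiviral mean spans 1.03 to 2.22 over the conditions and the class I mean 5.54 to 5.77, on axes that do not start at 0.

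Of the 4 listed transcription factors, Irf1 and Irf9 were called. Irf1 (chromosome 11, 53770014 to 53778374, GRCm38), an early target of interferon signalling that turns on antiviral and antigen presentation genes, ran from 5.35 through 10.4 to 16.7 CPM in complete media, from 18 through 22.5 to 27.4 in QCM and from 22.6 through 24.7 to 31.3 in SCM. In Wnt5a it ran from 13.9 through 19.6 to 28.2 CPM. All QCM and all SCM libraries lay above the complete media libraries, and 1 Wnt5a library fell among them. The log2 fold change against complete media was 1.08 in QCM (standard error 0.187, adjusted p = 0.0015, edgeR), 1.27 in SCM (standard error 0.187, adjusted p = 1.65e-05) and 0.96 in Wnt5a (standard error 0.187, adjusted p = 0.000312), and these calls held without any 1 library. These comparisons share the 6 complete media libraries.

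Irf9 (chromosome 14, 55603571 to 55610030), the DNA-binding partner of Stat2, ran from 4.80 through 5.94 to 7.90 CPM in complete media, from 6.88 through 10.6 to 15.3 in SCM and from 7.90 through 11.4 to 14.8 in Wnt5a. The SCM and complete media libraries overlapped, and the lowest Wnt5a library stood level with the highest of complete media. The log2 fold change was 0.94 in Wnt5a (standard error 0.252, adjusted p = 0.00626, edgeR) and 0.76 in SCM (standard error 0.253, adjusted p = 0.0429). The call in SCM was lost without any of 13 libraries, with an adjusted p up to 0.133; they were complete media replicates 1, 2, 3, 5 and 6, QCM replicates 2 and 5, SCM replicates 1, 2, 5 and 6 and Wnt5a + IgG replicates 4 and 6. In QCM the log2 fold change of Irf9 was 0.24 (adjusted p = 0.774). Irf7, which amplifies type I interferon production, had 0.53, 0.71 and 0.52 in QCM, SCM and Wnt5a and was not called (adjusted p = 0.483, 0.111 and 0.218), although the replicate block called it in SCM. Stat2 had −0.33, −0.19 and 0.27, without a call.

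Against complete media, 1 of the 34 listed genes tested was called higher in QCM (2.94%, against 0.355% of all genes tested) and 0 lower (0.0194% of all genes). In SCM 2 were called higher (5.88%, against 4.96% of all genes) and 0 lower (1.12%), and in Wnt5a 4 were called higher (11.8%, against 8.29%) and 0 lower (1.88%). The shares in SCM and Wnt5a were thus near those of all genes. At an unadjusted p under 0.05, 5 were higher and 2 lower in QCM, against 7.74% and 4.25% of all genes. By the same limit 11 were higher and 2 lower in SCM, against 14.1% and 10.6%, and 8 and 3 in Wnt5a, against 17.6% and 15.5%. At an adjusted p under 0.05 with no limit on the fold change, 4 were higher and 1 lower in SCM, against 7.43% and 4.45% of all genes, and 7 and 2 in Wnt5a, against 12.5% and 9.40%. DESeq2 called 4 higher and 1 lower in SCM, the lower being Tap1, and voom with limma 1 higher and 1 lower. In Wnt5a, voom with limma called 2 higher (Irf1 and Irf9), as did the model without complete media replicate 3 or without Wnt5a + IgG replicate 1, and a test against a fold change of 1.5 (glmTreat) called 0. That test also called 0 in QCM and 1 in SCM. A model with a replicate block called 4 higher in SCM (Irf1, Irf7, Irf9 and Parp14). The median log2 fold change over the 34 genes was 0.18 in QCM, 0.43 in SCM and 0.35 in Wnt5a, against 0.02, 0.01 and 0.01 over all genes tested. This set holds 2 genes, Isg15 and Cd74, that were under the detection limit.

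**Figure D2:**
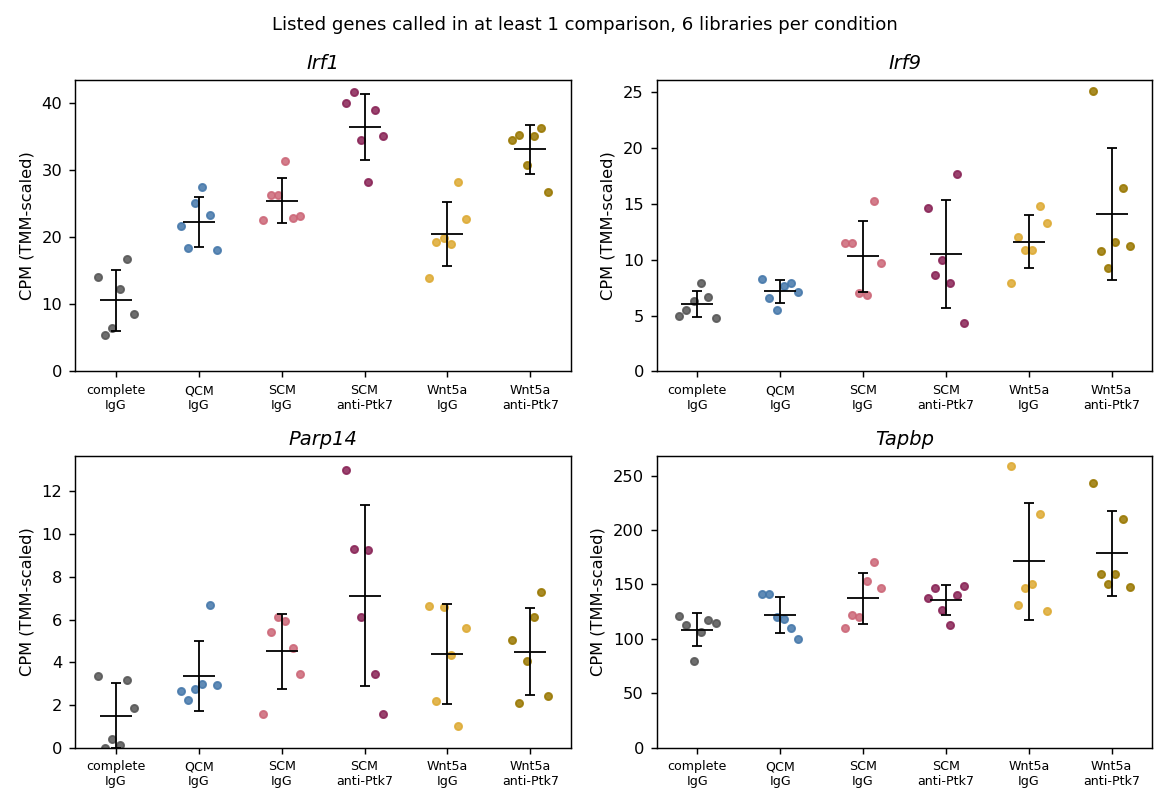
CPM of the 4 listed genes called in at least 1 comparison; each point is a library and bars are mean ± SD of 6 libraries. Irf1 is at or under 16.7 CPM in complete media and at or above 26.7 CPM in both anti-Ptk7 conditions, and Tapbp reaches 259 CPM in 1 Wnt5a + IgG library.

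Among the antiviral effectors, Parp14 was called in Wnt5a, and its call in SCM depended on the model. Parp14 (chromosome 16, 35832874 to 35871544), an ADP-ribosyltransferase, ran from 0 through 1.13 to 3.34 CPM in complete media, from 1.56 through 5.04 to 6.12 in SCM and from 1.00 through 4.97 to 6.64 in Wnt5a, and the groups overlapped. Its log2 fold change was 1.56 in Wnt5a (standard error 0.57, adjusted p = 0.046, edgeR) and 1.61 in SCM (standard error 0.57, adjusted p = 0.0585). In SCM it was called with the replicate block, by DESeq2, without SCM + anti-Ptk7 replicate 6 or complete media replicate 1 or 5, and without the libraries numbered 1. The Wnt5a call was lost by voom with limma, and without any of 14 libraries, with an adjusted p up to 0.106; these were complete media replicates 2, 3, 4 and 6, QCM replicates 1, 2 and 3, SCM replicates 2, 5 and 6 and Wnt5a + IgG replicates 1, 3, 4 and 6. Parp9, which forms a complex with the ubiquitin ligase Dtx3l, passed the adjusted p but not the fold change, at 0.50 in SCM (adjusted p = 0.0058) and 0.44 in Wnt5a (adjusted p = 0.00897). Ifi35 did so in SCM, at 0.52 (adjusted p = 0.01), and in Wnt5a Bst2, which tethers virions to the cell, was at −0.42 (adjusted p = 0.0432). Over the 14 genes of this group tested, the log2 fold changes ran from −1.78 to 1.19 in QCM, from −0.22 to 1.61 in SCM and from −0.53 to 1.63 in Wnt5a. Of the 14, 10, 13 and 12 were above 0, against 8420, 7905 and 7840 of all 15497 genes. Some of the largest values belong to genes of few counts, such as Usp18, which removes Isg15 from proteins, at 1.63 in Wnt5a (adjusted p = 0.204), with 0 through 0.371 to 1.33 CPM in complete media and 0.494 through 1.25 to 3.27 in Wnt5a.

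The sensors and the GTPases gave no call. Trim25, a ubiquitin ligase of RNA sensing, was at 0.36 in Wnt5a (adjusted p = 0.0454, under the fold change limit). Ifih1, the sensor of long double-stranded RNA also called MDA5, was at 0.14, 0.22 and 0.26 in QCM, SCM and Wnt5a, and Dhx58 at 0.95, 0.85 and 0.86 (adjusted p = 0.507, 0.36 and 0.285). Irgm1, which controls the other immunity-related GTPases, had a log2 fold change of −0.41 in Wnt5a (adjusted p = 0.0225), and Igtp, of which 2 complete media libraries held no count, had 1.71 in QCM, 1.22 in SCM and 1.53 in Wnt5a (adjusted p = 0.426, 0.417 and 0.222).

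**Figure D3:**
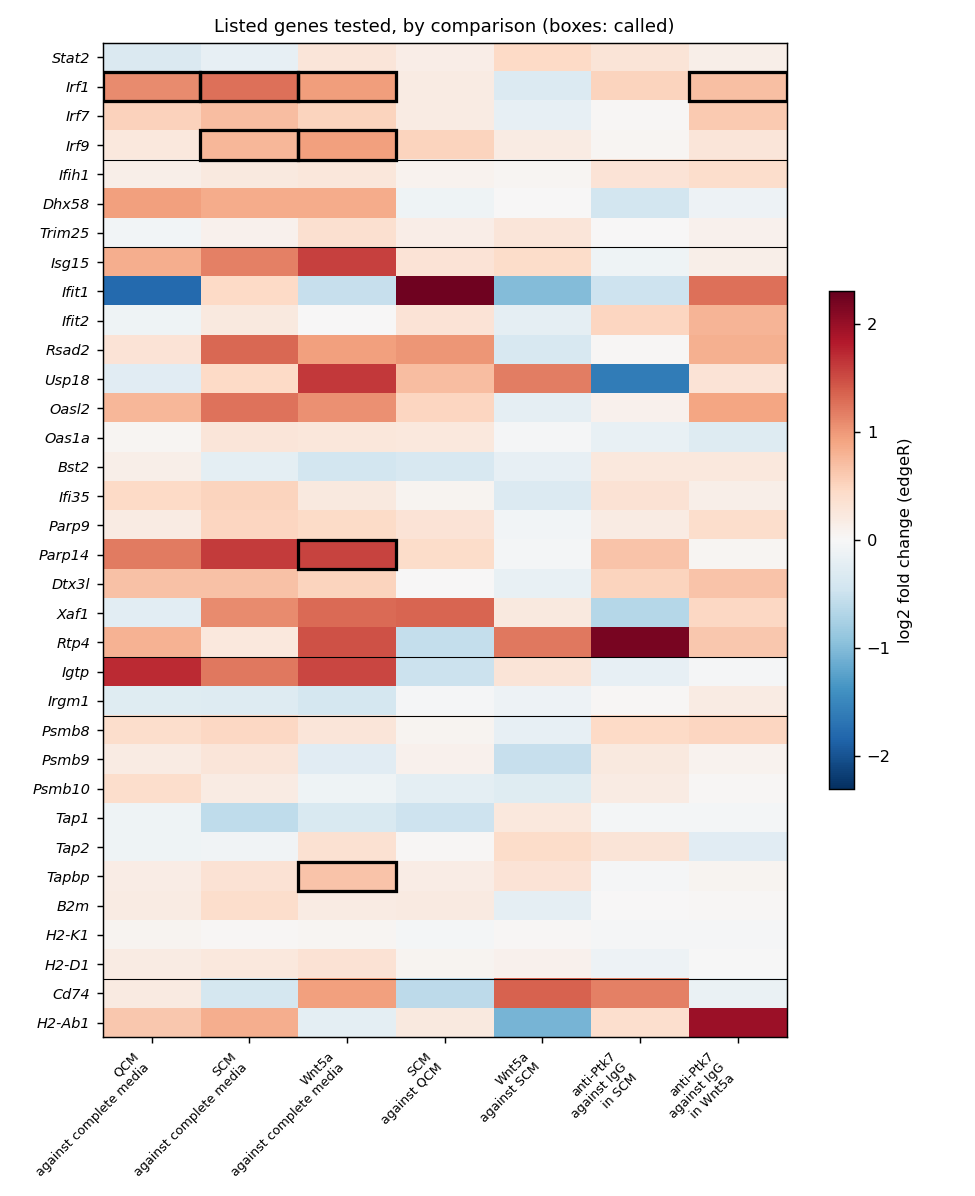
Log2 fold changes (color scale) of the 34 listed genes tested in 7 comparisons, by subgroup from transcription factors at the top to class II at the bottom; boxes mark called genes. Boxes lie on Irf1, Irf9, Parp14 and Tapbp, and the deepest colors without a box belong to genes of low counts such as Ifit1 and Rtp4.

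In class I presentation, Tapbp rose in Wnt5a while H2-K1 hardly varied. Tapbp (chromosome 17, 33915899 to 33929292) ran from 79.6 through 114 to 121 CPM in complete media and from 126 through 149 to 259 in Wnt5a, with no overlap. Its log2 fold change was 0.66 (standard error 0.15, adjusted p = 0.00154, edgeR), and the fold change fell under 1.5 without complete media replicate 3 (0.57) or Wnt5a + IgG replicate 1 (0.50) or 5 (0.58), and by voom with limma (0.57). H2-K1 (chromosome 17, 33996017 to 34000347) lay between 530 and 683 CPM in all 36 libraries, a coefficient of variation of 6.48%, and its log2 fold change was 0.07, 0.03 and 0.05 in QCM, SCM and Wnt5a, each with a standard error of 0.0603. H2-D1 ran from 291 through 317 to 375 CPM in complete media and from 338 through 391 to 516 in Wnt5a, a log2 fold change of 0.33 (adjusted p = 0.023), which is under the fold change limit. Tap1, a peptide transporter chain, was the listed gene with the lowest log2 fold change in SCM, −0.58 (standard error 0.165, adjusted p = 0.0168). It ran from 17 through 21.7 to 27.4 CPM in complete media and from 12.2 through 13.9 to 17.3 in SCM, a fold change just short of the limit. The immunoproteasome subunits Psmb8, Psmb9 and Psmb10 were not called. Of class II, H2-Ab1 alone was detected, at a mean of 0.598 CPM, and Ciita had a count in 7 of 36 libraries.

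**Figure D4:**
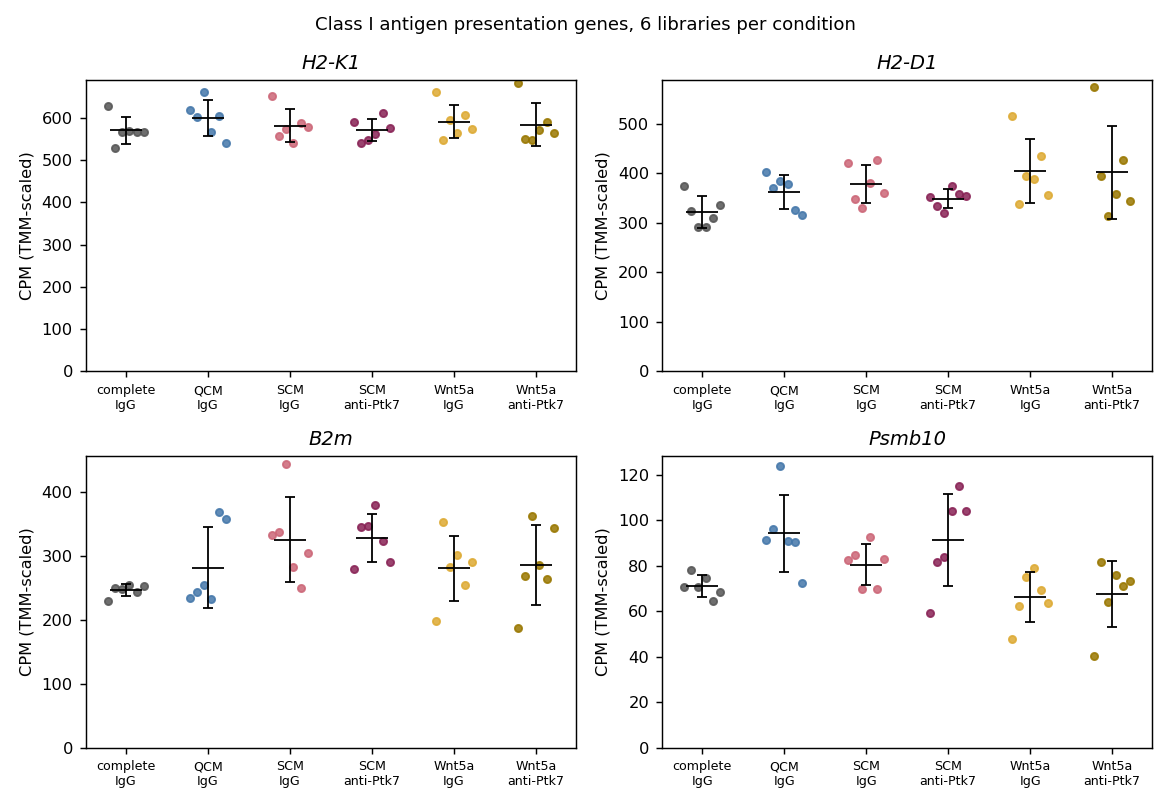
CPM of H2-K1, H2-D1, B2m and Psmb10; each point is a library and bars are mean ± SD of 6 libraries, on axes that start at 0. H2-K1 stays between 530 and 683 CPM in all 36 libraries, and B2m spans 187 to 443 CPM.

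Some class I genes deviated together between replicates and others in opposite directions. With the condition means removed, H2-K1 and H2-D1 deviated together over the 36 libraries (Pearson's r = 0.76) and so did Tapbp and H2-D1 (r = 0.75), whereas B2m went against H2-D1 (r = −0.82) and Tapbp (r = −0.77). Psmb9 went with Psmb10 (r = 0.62) and with B2m (r = 0.53), and Tap2 with H2-D1 (r = 0.53). Over the 36 class I pairs the median was 0.01 with 5 over 0.5, and over all 496 pairs of detected listed genes it was 0.04 with 9 over 0.5. The 36 libraries share conditions and possibly mice, and reads that H2-K1 and H2-D1 may share were not measured. The Wnt5a + IgG and Wnt5a + anti-Ptk7 libraries numbered 1 were extreme, with B2m at 198 and 187 CPM and H2-D1 at 516 and 575 CPM. Over the 30 libraries with other numbers, r was 0.48 for H2-K1 with H2-D1, 0.71 for Tapbp with H2-D1, −0.77 for B2m with H2-D1 and −0.67 for B2m with Tapbp. Libraries also differed in how log2 CPM moved with coding length, and B2m, whose coding length is 357 bases, correlated with that slope at −0.60 and Tapbp (1442 bases) at 0.60. With the slope removed, B2m and H2-D1 were at −0.84 and B2m and Tapbp at −0.63.

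SCM and QCM, and Wnt5a and SCM, gave no call among the listed genes. For SCM against QCM edgeR called 0 higher (0.761% of all genes) and 0 lower (0.142%), with 3 higher and 2 lower at an unadjusted p under 0.05 (8.50% and 8.49% of all genes), and the median log2 fold change was 0.15 against −0.01 over all genes. For Wnt5a against SCM it called 0 higher (0.297%) and 0 lower (0.394%), with 3 and 1 at an unadjusted p under 0.05 (8.72% and 10.2%) and a median of −0.04 against 0.02. DESeq2 and voom with limma called 0 in both. Irf1 was at 0.19 in SCM against QCM (adjusted p = 0.641).

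Irf1 was the only listed gene called between anti-Ptk7 and IgG, and only in Wnt5a. Irf1 ran from 26.7 through 34.7 to 36.2 CPM in Wnt5a + anti-Ptk7, and 1 Wnt5a + IgG library, at 28.2 CPM, reached into that range. The log2 fold change was 0.69 (adjusted p = 0.03, edgeR), and 1 of 34 genes was called higher (2.94%, against 0.452% of all genes) and 0 lower (0.432%), with 6 and 0 at an unadjusted p under 0.05 (7.11% and 7.94% of all genes). The call was lost without Wnt5a + IgG replicate 1, 2, 3 or 4 or Wnt5a + anti-Ptk7 replicate 2, 4 or 5, with an adjusted p up to 0.0778. It was also lost without all 6 libraries numbered 1, an alternative added after the data were seen (0.59, adjusted p = 0.118). In SCM, anti-Ptk7 gave 0 calls higher (0.581% of all genes) and 0 lower (0.645%) by edgeR, DESeq2 and voom with limma, with 4 and 0 at an unadjusted p under 0.05 (8.36% and 8.76% of all genes). There Irf1 ran from 28.2 through 37.0 to 41.6 CPM, with a log2 fold change of 0.52 (adjusted p = 0.116). Of 4 Paneth cell markers, Lyz1 was called lower with anti-Ptk7 in Wnt5a (log2 fold change −0.63, adjusted p = 0.00374), and the median of the 4 was −0.58 with 0 above 0. With anti-Ptk7 in SCM, the median of the 4 was −0.38, also with 0 above 0. There 0 were called, and 1 passed the adjusted p but not the fold change. Of 6 enterocyte markers, Alpi was called lower in Wnt5a (−0.72, adjusted p = 0.0104) and in SCM (−0.59, adjusted p = 0.0403), while the other members ran up to 0.27 and 0.38, with 2 and 3 of the 6 above 0 and medians of −0.13 and 0.02. The part of these markers in the Irf1 call was not tested. The difference between the antibody effects in Wnt5a and in SCM was called for 0 genes (602 of all genes and 0 of the listed genes at an unadjusted p under 0.05, edgeR), so the antibody effect on Irf1 was not shown to differ between the media.

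The upstream genes of the pathway were uneven, with receptors expressed and ligands at or near 0. Of 11 interferon ligands, 8 had 0 counts in all libraries, Ifnb1, Ifng, Ifnl2, Ifnl3 and the 4 alpha interferons listed, and Ifne, Ifnk and Ifnz had 3, 8 and 5 counts in all. Of 6 receptor chains, all were detected. Ifngr2, the signalling chain of the interferon gamma receptor, ran from 144 through 155 to 166 CPM in complete media. In QCM it ran from 191 through 241 to 263 CPM and in SCM from 224 through 237 to 263. The QCM and SCM libraries overlapped each other, and Ifngr2 was above complete media in all of them. Its log2 fold change was 0.59 in QCM (standard error 0.0702, adjusted p = 2.86e-06, edgeR) and 0.64 in SCM (standard error 0.0703, adjusted p = 7.22e-08), and the QCM value stood at the fold change limit, with 0.54 to 0.63 over 36 models that each left out 1 library, of which 25 fell short of it. Il10rb, which the receptors of interferon lambda and interleukin 10 share, rose in SCM by 0.61 (adjusted p = 9.41e-07), a value under the limit without SCM replicate 1 or 2 or complete media replicate 3. Ifnlr1, the interferon lambda receptor, rose in Wnt5a by 0.93 (adjusted p = 0.0136), which was lost without Wnt5a + IgG replicate 1 (0.68, adjusted p = 0.0864).

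**Figure D5:**
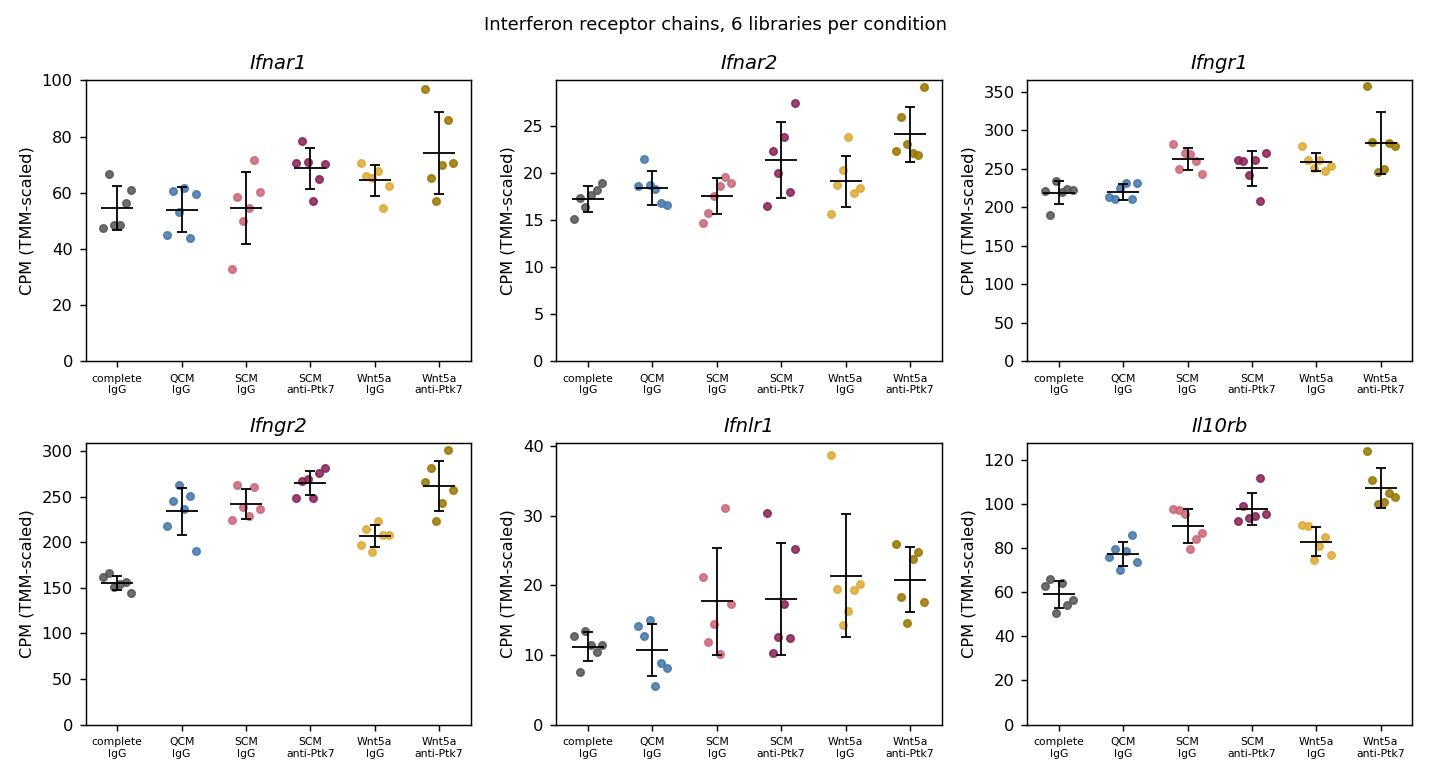
CPM of the 6 interferon receptor chains; each point is a library and bars are mean ± SD of 6 libraries, on axes that start at 0. Ifngr2 lies between 144 and 166 CPM in complete media and between 224 and 263 CPM in SCM.

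Outside the receptors, 1 of 14 kinases, other factors and inhibitors tested was called lower in SCM and 1 in Wnt5a. Of 10 genes of nucleic acid sensing, 1 was called lower in SCM and 0 in Wnt5a. The shares of all genes called lower were 1.12% and 1.88%, and 0 genes of either list were called higher. In Wnt5a, 11 of the 14 and 7 of the 10 had a log2 fold change above 0. Irf8, a factor best known from myeloid cells, fell by 0.96 in SCM (adjusted p = 0.00199, edgeR) and by 1.08 in Wnt5a (adjusted p = 0.000297), from 189 through 228 to 244 CPM in complete media to 66.7 through 118 to 144 in SCM, and Mavs, the adaptor of the RNA sensors, fell by 0.78 in SCM (adjusted p = 0.000374). Of 17 other interferon-stimulated genes tested, 4 were higher in SCM and 6 in Wnt5a, with 0 lower in either, against 4.96% and 8.29% of all genes called higher and 1.12% and 1.88% lower. Ifi27, Ifi47, Cmpk2, a nucleotide kinase encoded next to Rsad2, and Samd9l were higher in both, and Isg20, an exonuclease, and Cxcl10, a chemokine, in Wnt5a. Cmpk2 was at 1.27 in SCM (adjusted p = 0.00144) and 1.32 in Wnt5a (adjusted p = 0.000453), and Samd9l, a restriction factor, at 0.83 (adjusted p = 0.0182) and 1.34 (adjusted p = 0.000104). These 2 genes were also higher in SCM than in QCM, at 1.19 for Cmpk2 (adjusted p = 0.0175) and 0.94 for Samd9l (adjusted p = 0.0335), with overlapping libraries. The former was lost without QCM replicate 2, 3 or 4 or SCM replicate 1 (adjusted p up to 0.0692), and the latter without QCM replicate 2, 3 or 4 or SCM replicate 2, 3, 5 or 6 (up to 0.109). Samd9l in SCM against complete media was lost without SCM replicate 3 or complete media replicate 4 (adjusted p up to 0.0519). Ifi47, an immunity-related GTPase, was at 1.44 in SCM and 1.34 in Wnt5a (adjusted p = 0.0368 and 0.0337). It was lost in SCM without SCM replicate 2 or 3 or complete media replicate 3, 4, 5 or 6, and in Wnt5a without complete media replicate 3, 5 or 6 or Wnt5a + IgG replicate 3 or 5. Cxcl10 ran from 0.0833 through 0.301 to 0.564 CPM in complete media and from 0.679 through 1.34 to 2.17 in Wnt5a (log2 fold change 2.02, adjusted p = 0.00186). Of 23 other antigen presentation genes tested, H2-T22 was called in SCM (0.59, adjusted p = 0.0358), H2-T23 in Wnt5a (0.75, adjusted p = 4e-04) and H2-DMa with anti-Ptk7 in SCM (1.06, adjusted p = 0.0477), all higher. With 1 of 23 genes in each comparison, against 4.96%, 8.29% and 0.581% of all genes called higher, the SCM and Wnt5a shares were no larger than those of all genes. The first was lost without any of 13 libraries (adjusted p up to 0.131) and the last without any of 24 (up to 0.118).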

How the data were processed

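RNA of intestinal organoids was sequenced with Smart-Seq V4 and Nextera XT. The authors filtered reads and aligned them with HTSeqGenie and GSNAP to NCBI Build 38 (mm10), counted reads in coding sequences, and deposited unnormalized counts per gene and library; the gene annotation is not given in the sources used here. Symbols, positions and coding lengths came from GENCODE M21 (GRCm38), and promoters from RefSeq.

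Counts of 36 libraries, between 9581589 and 21029769 in sum, were analysed with R 4.3.3 and edgeR 4.0.16: filterByExpr, TMM, and the quasi-likelihood test in 1 model of 6 condition means. Log2 CPM used a prior count of 2. Calls used the study's cutoffs (adjusted p 0.05, fold change 1.5), whose own test was voom with limma (here limma 3.58.1) on quantile-normalized counts. DESeq2 1.42.0 and the other alternatives are given under the dependence on processing. The genes, their groups and the pathway lists were chosen with earlier results of these data known. Every listed gene may be named; statistics in full go to called genes. Tested on simulated data for SCM against complete media, edgeR made calls at this sample size. The simulated log2 changes were of size 1 or 2, so this cannot show how often smaller changes are called. The labels number the replicates 1 to 6 in each condition, and the study's design numbers its 6 mice likewise without stating that these are the same numbers. Libraries of the same number had a mean correlation of deviations of 0.092 and those of different numbers −0.018, so the replicate block is given where it moved a count. By number the mean was uneven, at 0.241 for number 1, 0.134 for number 3 and down to 0.0231 for number 4. P-values measure the spread between these libraries. Intervals and floors cover counting error only.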

Additional observations from a re-analysis of the deposited data

Results flagged for a closer look

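Of 66 sets of 6 libraries checked for a single library far from the others, 3 held one, and chance alone marks about 1 in 20. The mean log2 CPM of the 4 transcription factors was 4.44 in Wnt5a + IgG replicate 5, against 3.70 to 3.84 in the other 5 libraries. Parp14 was at 6.66 CPM in QCM + IgG replicate 5, where the others began at 2.25 CPM and reached 2.97 CPM. Tapbp in complete media was at 79.6 CPM in replicate 3, and the others ran from 106 to 121 CPM.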

How the results depend on the processing

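No alternative turned the direction of a result. Of the listed genes, 2 had been called higher in SCM, 4 in Wnt5a and 0 lower. Here voom with limma on quantile-normalized counts gave 1 higher and 1 lower in SCM and 2 higher in Wnt5a, and DESeq2 gave 4 higher and 1 lower in SCM. Upper-quartile scaling, library size alone and no filter on low counts each gave 1 lower in SCM, and no filter also gave 1 higher there and 0 higher for anti-Ptk7 in Wnt5a. Without the fold change limit, SCM had 4 higher and 1 lower and Wnt5a 7 higher and 2 lower, against 7.43%, 4.45%, 12.5% and 9.40% of all genes. A test against a fold change of 1.5 (glmTreat) left 0 in QCM, 1 in SCM, 0 in Wnt5a and 0 for anti-Ptk7 in Wnt5a. The replicate block gave 4 higher in SCM and moved no other count of listed genes by over 1.5 times. Each library's correlations with the libraries of other conditions were averaged by number. For 16 of 36 libraries, their own number had the highest mean among the 6 numbers. Without the libraries numbered 1, an alternative chosen after seeing the data, 0 were higher for anti-Ptk7 in Wnt5a. Leaving out 1 library at a time gave 1 to 4 higher and 0 to 1 lower in SCM, 2 to 4 higher in Wnt5a and 0 to 1 higher for anti-Ptk7 in Wnt5a. The mean log2 CPM of the detected genes in Wnt5a less that in complete media was 0.41, and 0.49 with a prior count of 0.5 and 0.30 with quantile normalization. Of the calls of single genes, listed or of the pathway, 24 were lost under glmTreat, 9 under voom, 8 with no filter, 7 with only the groups compared in the model, 5 without the libraries numbered 1, 3 with library size alone and 1 each under DESeq2, upper-quartile scaling and the replicate block. With at least 10 counts required in every library, 26 calls held, and the others were of genes that this filter left untested. With only the groups compared, the losses were Parp14 (adjusted p = 0.12) and Ifi47 in Wnt5a, Ifi47 and H2-T22 in SCM, Ifngr2 in QCM, Cmpk2 in SCM against QCM and H2-DMa. The cause of these shifts was not tested. Depth limits the genes under 0.5 CPM, since 3 counts correspond to 0.143 to 0.313 CPM in a library.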
